A study of Mus musculus with 10 samples.

Results

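The 26S proteasome is the protease of the cytosol and nucleus that degrades proteins tagged with ubiquitin, and the genes of its constitutive form were followed in RAW264.7 cells, an established mouse macrophage line. Members were the genes of the deposited table whose mouse symbol is Psma, Psmb, Psmc or Psmd followed by a number, leaving out the immunoproteasome and thymus subunits Psmb8 to Psmb11 and pseudogenes. The rule found 35 of 43432 genes and used no measured value. Poly(A) RNA was sequenced from 10 libraries, 2 for each of 5 conditions, all of the same line. The conditions were solvent alone (DMSO, 0.5%), solvent with lipopolysaccharide at 1 µg/mL (DMSO + LPS), and compound **1**, an enone fatty acid (9-keto-hexadec-7-enoic acid, 7(E) isomer), at 32, 10 and 3.2 µM with the same LPS. The compound or solvent was given for 1 h before LPS, a bacterial cell wall component that activates macrophages, and RNA was taken after 12 h. No group received the compound without LPS, so its action on resting cells was not measured. The labels number the 2 libraries of a condition but do not say that they came from separate cultures, and p-values then measure only the spread between these samples.

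The particle has a 20S core of stacked rings, with alpha subunits (Psma genes) forming the outer rings that gate the entrance and beta subunits (Psmb genes) the inner rings that cut proteins. The 19S regulatory particle binds each end: its base holds a ring of ATPases (Psmc genes) that unfold substrates, and its lid (most Psmd genes) holds the deubiquitinase that removes the ubiquitin chain. In macrophages the same core can take up alternative catalytic subunits induced by interferon, which make the immunoproteasome and shape the peptides shown to T cells. The stress-activated factor encoded by Nfe2l1 is known to raise proteasome genes together when proteolysis fails, and Nrf2, encoded by Nfe2l2 and held back by Keap1, has been linked to some of them.

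Not every member is a part of the constitutive particle. Psma8 is the testis counterpart of Psma7, and Psmd5, Psmd9 and Psmd10 encode chaperones that help to assemble the base and leave before the particle is complete. The other 31 members were the 7 alpha and 7 beta subunits, the 6 ATPases, 3 further base subunits and 8 lid subunits. On the scale of CPM (counts scaled to a common library total with edgeR's TMM factors) per kilobase of transcript, Psma8 stood at 9.32 and Psmd9 at 14.2 in DMSO, while Psmb4, a structural beta subunit, stood at 252 and Psma5, an alpha subunit, at 236. Psmb5, the beta subunit with chymotrypsin-like activity, stood at 28.2 on this scale, although its catalytic partners Psmb6 and Psmb7 stood at 196 and 146. Transcript lengths are those of GENCODE principal transcripts and may be longer than the ends used in these cells.

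Many proteasome genes have processed pseudogenes with near-identical sequence, which can take or split reads. Of the 31-base stretches of the member transcripts, 15 members shared none with another annotated gene and 13 shared over 5%. Psmb5 shared 74%, mostly with the pseudogene Gm3375, followed by Psmb3 with 66.9%, Psma5 with 64% and Psmd2 with 45.3%, so the values of these genes are uncertain in level. Psma2, Psmb7, Psmc3 and Psmd13 overlap other genes (AW209491, Nek6, Slc39a13 and Sirt3), and how strand was used in counting is not given in the sources used here.

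Library totals lay between 45966803 and 58976377 counts, and every member passed the count filter, the lowest being Psma8 with 628 counts in replicate 2 at 32 µM. Macrophage markers were high in all libraries (Cd68, 599 to 723 CPM), and the T-cell gene Cd3e was at 0 in all. Other macrophage markers moved. With LPS Csf1r and Lyz2 were lower (log2 difference -1.48 and -0.65) and Adgre1, Itgam and Spi1 higher (1.07, 0.98 and 0.58). At 32 µM against DMSO + LPS Csf1r was higher (0.40) and Adgre1, Lyz2 and Itgam lower (-0.31, -0.61 and -0.67). Replicate 1 at 10 µM also held the epithelial genes Epcam and Krt18 at 9.69 and 1.87 CPM and the collagen gene Col1a2 at 1.85 CPM. Replicate 1 at 3.2 µM held the same 3 genes at 1.68, 0.259 and 0.129 CPM, and the other 8 libraries held none of them above 0.0352 CPM. Replicate 2 at 32 µM carried 2.46% of its counts on Gm42418, a gene overlapping ribosomal RNA, against at most 0.207% elsewhere. A score of short transcripts (the median log2 deviation of 518 genes with transcripts under 1000 nt, proteasome genes excluded) was lowest in DMSO replicate 2 at -0.34 and in replicate 2 at 32 µM at -0.23, and highest in replicate 1 at 10 µM at 0.25. The part these features play in the member values was not tested, but the counts of members called were also taken without single libraries and with the score in the fit.

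Promoter windows are shown for 4 members. Psmb5, Psmb6 and Psmd9 were picked because they carry the 9-base core of the antioxidant response element (TGACNNNGC), the sequence bound by Nrf2 and related factors, within the printed bases; the first 2 are catalytic subunits, and Psmd9 did not rise with LPS. Psma6, the member with the highest fold change under LPS, carries a CCAAT box. Sequences are from RefSeq on GRCm38.p6, written 5′ to 3′ on the strand of the gene and ending at the last base before the RefSeq start. Capitals mark the motif. They lie at chr14:54617996-54618095 (minus strand), chr11:70525257-70525356, chr5:123228090-123228189 and chr12:55384102-55384221 (plus strand), in the order given. The Psmb5 window overlaps the start of the GENCODE gene, and the Psmd9 window lies inside the GENCODE gene (chr5:123169413-123250131), whose counts are reported and which starts further upstream.
Psmb5: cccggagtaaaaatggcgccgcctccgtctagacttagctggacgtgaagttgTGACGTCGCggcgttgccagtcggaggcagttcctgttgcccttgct
Psmb6: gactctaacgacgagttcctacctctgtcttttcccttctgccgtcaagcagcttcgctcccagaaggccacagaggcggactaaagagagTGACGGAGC
Psmd9: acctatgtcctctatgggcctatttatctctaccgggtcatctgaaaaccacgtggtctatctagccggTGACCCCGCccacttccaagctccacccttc
Psma6: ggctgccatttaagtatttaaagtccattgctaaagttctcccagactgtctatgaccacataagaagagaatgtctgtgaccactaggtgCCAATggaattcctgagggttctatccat

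Windows from 250 bases before to 50 after the start were found for 28 of the 35 members (30 windows). On either strand, 5 of the 30 windows held TGACNNNGC (16.7%, beside 12.4% of all 32851 mouse windows), those of Psmb5, Psmb6, Psmd9, Psmc6 and Psmd12. The CCAAT letters occurred in 11 of the 30 (36.7%, beside 37.4% of all windows). Both shares were near those of all promoters, and a match is a description, not a site of binding. Windows of Psma8, Psmb1, Psmb2, Psmb7, Psmc3, Psmd3 and Psmd7 were not analysed here.

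LPS raised the constitutive proteasome genes nearly as a block. Of the 35 members, 32 rose and 0 fell in DMSO + LPS against DMSO (edgeR's quasi-likelihood test, Benjamini-Hochberg adjusted p below 0.05 over 14172 genes), where 25.2% of all genes rose and 25.8% fell. At least 1.5-fold was reached by 24 members, where 14.6% of all genes rose as far. The median log2 difference of the members was 0.67, or 1.59-fold, beside 0.00 over all genes. Both LPS libraries stood above both DMSO libraries in 33 members, a pattern found in 38.2% of all genes, Psma8 overlapped, and 1 (Psmd9) stood below both, as did 38.6% of all genes. DESeq2's Wald test also called 32 members higher and 0 lower, beside 3596 and 3503 of all 14172 genes. In edgeR 32 members had an unadjusted p below 0.05 (56.2% of all genes). Together the members took 0.68% and 0.656% of all counts in DMSO and 0.947% and 0.975% in DMSO + LPS. CPM are relative to the RNA sequenced, and in bulk RNA a change in the number of responding cells and a change in transcript per cell cannot be told apart.

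**Figure D1:**
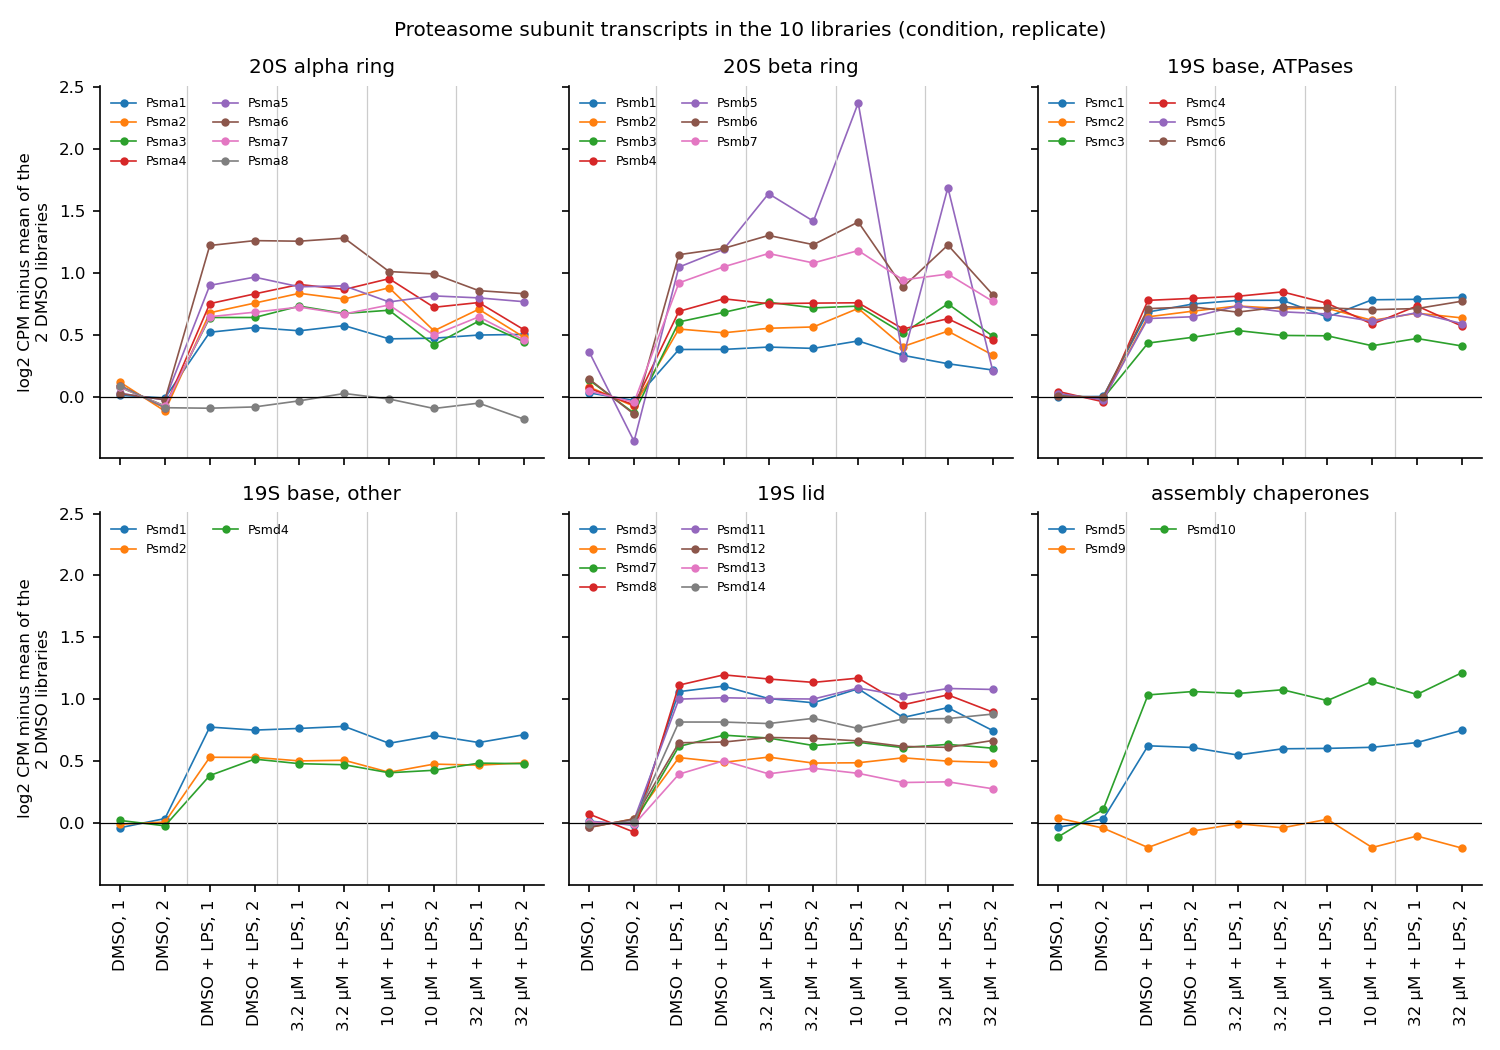
The 6 panels plot each member's log2 CPM minus the mean of the 2 DMSO libraries (vertical axis) in the 10 libraries (horizontal axis, condition and replicate), with lines joining the libraries of a gene for reading only. Apart from Psma8, Psmd9 and Psmb5, the lines rise at DMSO + LPS and stay above both DMSO libraries at every dose of the compound, while Psmb5 swings between the libraries of a condition, with replicate 2 at 10 and 32 µM below DMSO replicate 1.

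Within the core, the alpha ring gene Psma6 (ENSMUSG00000021024, chr12:55384222-55418454, plus strand, mm10) rose most of all members. It held 171 and 165 CPM in DMSO and 392 and 403 CPM in DMSO + LPS, a log2 difference of 1.24 ± 0.042 (SE, adjusted p = 1.41e-07). Psma5 came next within the alpha ring, with 297 and 287 CPM against 544 and 570 CPM, a log2 difference of 0.93. All of the 7 ring subunits that the somatic particle uses rose (25.2% of all genes), and Psma1 rose least, from 219 and 216 CPM to 311 and 320 CPM (0.54). Psma4 rose from 134 and 118 CPM to 212 and 224 CPM, Psma2 from 180 and 153 CPM to 266 and 281 CPM, Psma3 from 158 and 143 CPM to 234 in each library, and Psma7 from 200 and 179 CPM to 296 and 303 CPM. These 4 genes lay between 0.64 and 0.79 on the log2 scale, in the middle of the members. The testis paralog Psma8 did not pass the test, with 16.7 and 14.8 CPM in DMSO and 14.8 and 14.9 CPM in DMSO + LPS (log2 difference -0.09, interval -0.28 to 0.09).

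Among the catalytic beta subunits, Psmb6 (caspase-like; chr11:70525367-70527858, plus strand) rose from 172 and 141 CPM to 345 and 357 CPM, a log2 difference of 1.17 ± 0.19 (adjusted p = 0.00119). Psmb7 (trypsin-like) rose from 174 and 164 CPM to 319 and 350 CPM, or 0.98 ± 0.10 (adjusted p = 8.53e-05). Psmb5 (chr14:54614119-54618022, minus strand) held 31.6 and 19.2 CPM in DMSO and 50.8 and 56.1 CPM in DMSO + LPS, a log2 difference of 1.07 close to those of its partners. Its libraries did not overlap between these conditions, but its interval ran from -0.46 to 2.61 and it did not pass the test (adjusted p = 0.22). The fit estimates 1 spread per gene over all conditions. Between replicates Psmb5 differed by 0.72 (log2) in DMSO, 2.06 at 10 µM and 1.48 at 32 µM. It differed by -0.14 in DMSO + LPS and 0.22 at 3.2 µM. What kept Psmb5 from passing was not tested. Fitted on the 4 libraries compared alone, its adjusted p was 0.00806. The noncatalytic ring members had lower fitted differences, a contrast that was not tested. Psmb4 rose from 312 and 284 CPM to 480 and 515 CPM (0.74), Psmb3 from 148 and 123 CPM to 205 and 217 CPM (0.64), Psmb2 by 0.53 and Psmb1 by 0.38, the lowest value among members that passed. Psmb1 stood at 158 and 151 CPM in DMSO and 201 CPM in both LPS libraries.

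The 6 ATPases of the base all rose, where 25.2% of all genes rose. Their log2 differences ran from 0.46 in Psmc3 to 0.79 in Psmc4, and 5 reached 1.5-fold (14.6% of all genes). Psmc1 rose from 261 CPM in both libraries to 419 and 438 CPM, and Psmc2 from 195 and 189 CPM to 300 and 310 CPM. Psmc4 rose from 156 and 148 CPM to 260 and 263 CPM, Psmc5 from 148 and 143 CPM to 225 and 227 CPM, and Psmc6 from 113 and 112 CPM to 184 and 186 CPM. Of the other base subunits, Psmd1, a scaffold, rose from 231 and 243 CPM to 405 and 398 CPM (0.76). Psmd4, the ubiquitin receptor Rpn10, rose from 248 and 240 CPM to 318 and 349 CPM, a log2 difference of 0.45 ± 0.051 (adjusted p = 1.53e-04) that stayed under 1.5-fold. Psmd2, the scaffold that binds shuttle receptors, rose by 0.53.

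The lid held the widest range of responses among the parts of the regulatory particle. Psmd8 rose from 153 and 138 CPM to 315 and 334 CPM (log2 difference 1.15 ± 0.088), Psmd3 from 147 and 144 CPM to 304 and 313 CPM (1.08), and Psmd11 from 189 and 197 CPM to 387 and 390 CPM (1.01). Psmd11 encodes Rpn6, a clamp between the core and the regulatory particle, and Psmd3 and Psmd8 encode the lid subunits Rpn3 and Rpn12. Psmd14, the deubiquitinase Rpn11, rose from 145 and 147 CPM to 257 CPM in each library, or 0.82 ± 0.045 (adjusted p = 1.95e-06). Psmd7, its structural partner, rose from 163 CPM in each library to 250 and 267 CPM (0.67), and Psmd12 from 138 and 145 CPM to 221 and 222 CPM (0.65). Psmd6 and Psmd13 rose by 0.51 and 0.45 and did not reach 1.5-fold.

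The 3 assembly chaperones that the symbols bring in did not move alike. Psmd10 (gankyrin), which also binds cell cycle regulators, rose from 53.5 and 62.3 CPM to 118 and 121 CPM, a log2 difference of 1.04 ± 0.091. Psmd5 rose from 83.3 and 87.2 CPM to 131 and 130 CPM (0.62). Psmd9 held 37.8 and 35.7 CPM in DMSO and 32.1 and 35.2 CPM in DMSO + LPS, a log2 difference of -0.13 (interval -0.33 to 0.07, adjusted p = 0.252). Its LPS libraries stood below both DMSO libraries, and it passed the test as lower with the short-transcript score in the fit (-0.20) and when libraries were scaled by their totals alone.

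Scaling bears on the size of these differences. The TMM factors were 1.12 in both DMSO libraries and 0.959 to 0.988 elsewhere, and with library totals alone the median of all genes in DMSO + LPS against DMSO moved to -0.20, with 2445 genes higher and 5556 lower in place of 3566 and 3654. The members then counted 32 higher and 2 lower (Psma8 and Psmd9), their median was 0.46, and 9 reached 1.5-fold, beside 1582 of 14172 genes. Split by shared sequence in the main fit, 14 of the 15 members without a shared stretch rose, with a median of 0.65, beside 25.2% of all genes. Of the 13 sharing over 5%, 12 rose, with a median of 0.76. Members sharing some but at most 5% were left out of this split.

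At 32 µM of the compound 1 member passed the test. Against DMSO + LPS, 0 rose and 1 fell, Psma6, where 4.06% of all genes rose and 5.72% fell (edgeR's quasi-likelihood test, adjusted p below 0.05). The median member difference was -0.05 (log2), beside 0.01 over all genes, and it moved to -0.09 without replicate 1 and to -0.01 without replicate 2 of the 32 µM libraries. An unadjusted p below 0.05 was found for 5 members, Psma5, Psma6, Psmb1, Psmd3 and Psmd13, all with lower fitted levels, as for 22.2% of all genes in either direction, and DESeq2's Wald test called Psma5 beside Psma6 and 0 higher, where it called 693 genes higher and 937 lower in all. The 95% intervals of 34 members lay within 1.5-fold in either direction, and only that of Psmb5 did not (-1.499 to 1.52). These intervals bound each difference and do not show that the levels were equal. Both 32 µM libraries lay above both DMSO + LPS libraries in 4 members and below them in 13, beside 25.7% and 24.3% of all genes. The 13 were Psma1, Psma3, Psma5, Psma6, Psma7, Psmb1, Psmb4, Psmc4, Psmd1, Psmd2, Psmd3, Psmd8 and Psmd13, and the 4 were Psmc1, Psmd5, Psmd11 and Psmd14. All 3 dose comparisons share the DMSO + LPS libraries.

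**Figure D2:**
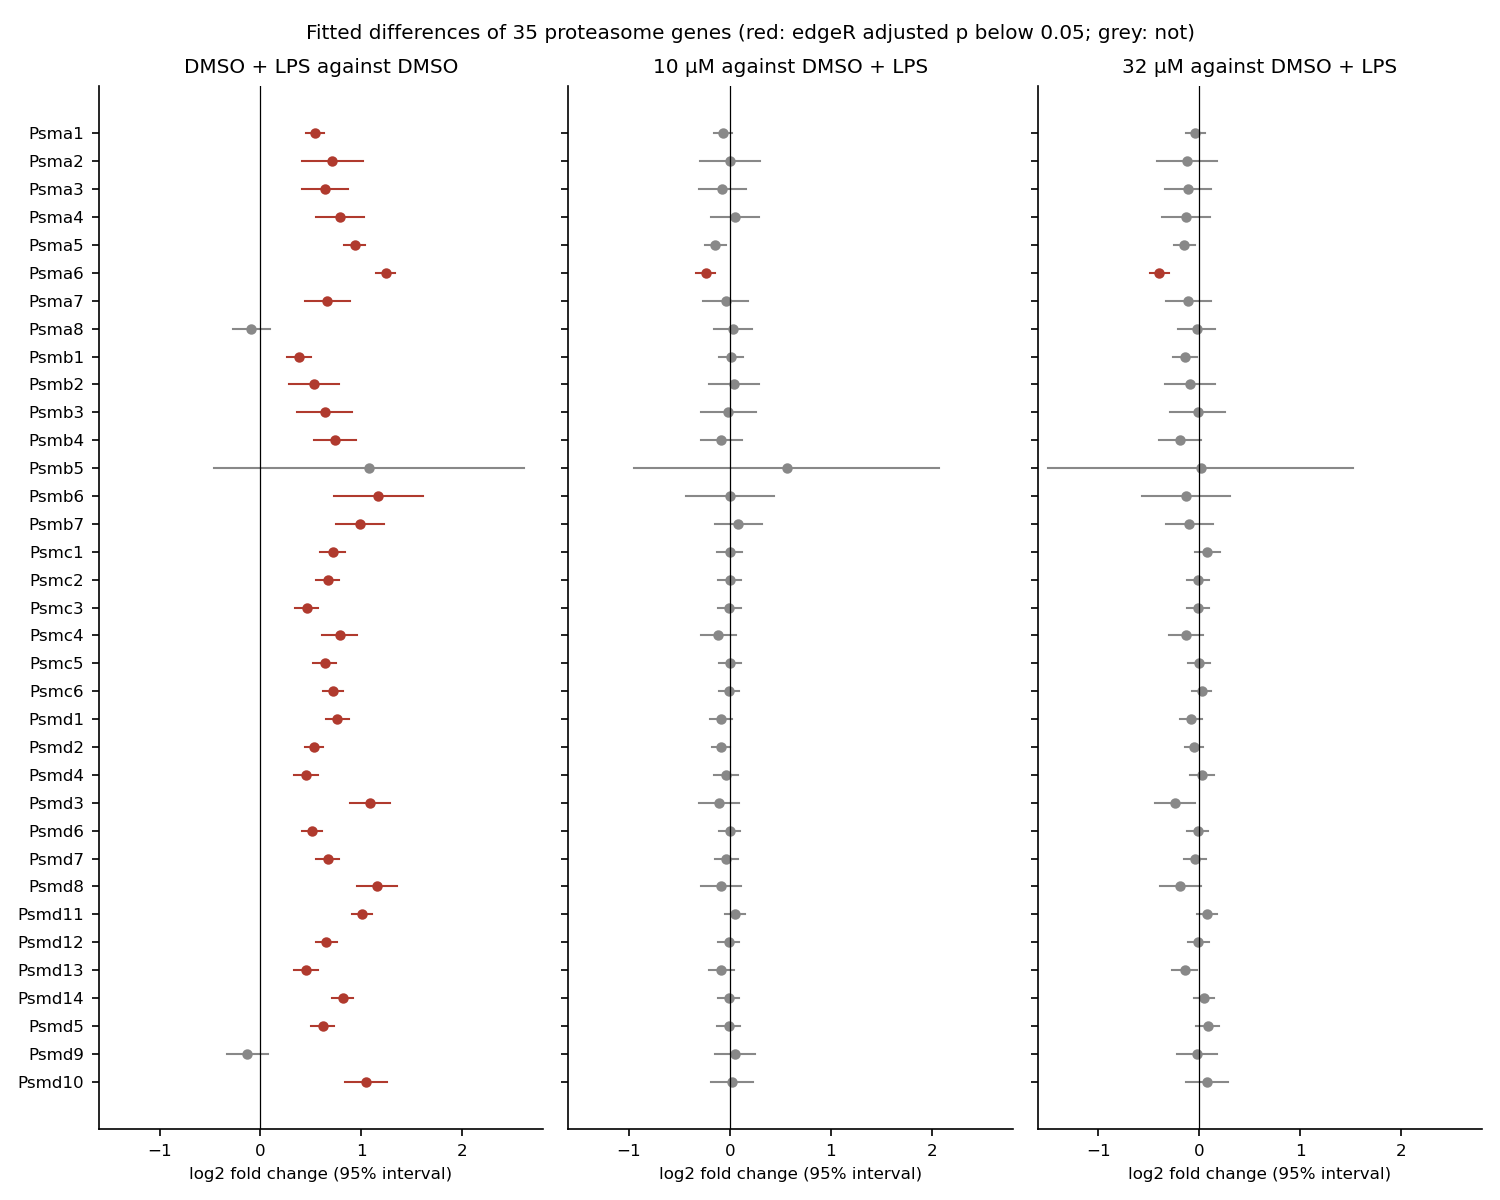
Points give the fitted log2 fold change of each of the 35 members and lines its 95% interval, for LPS against solvent and for 10 and 32 µM of the compound against DMSO + LPS, with red marking an edgeR adjusted p below 0.05. In the first panel 32 points are red and right of 0, and in each of the others Psma6 alone is red, left of 0, with the Psmb5 interval the widest in all 3.

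Psma6 fell at both higher doses. It held 392 and 403 CPM in DMSO + LPS, 402 and 409 CPM at 3.2 µM, 339 and 335 CPM at 10 µM and 305 and 300 CPM at 32 µM. The 32 µM libraries were below the 10 µM libraries, which were below all others with LPS, and all stood above the DMSO libraries at 171 and 165 CPM. The log2 difference at 32 µM was -0.40 ± 0.041 (adjusted p = 6.15e-04), and it kept its call under every alternative, single libraries left out included, other than the 1.5-fold cutoff. At 10 µM it was -0.24 ± 0.041 (adjusted p = 0.0245). That call did not hold without either DMSO + LPS, either 10 µM or either 3.2 µM library (adjusted p 0.0689 to 0.225), nor in a fit of the 4 libraries alone (0.263). Between 32 and 10 µM the difference was -0.16 and did not pass (adjusted p = 0.127), while DESeq2 and the fit with the short-transcript score called it. Only 0.2% of the stretches of Psma6 occur in another gene.

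The next members at the lower end were Psmd3 and Psmb4. Psmd3 held 278 and 244 CPM at 32 µM against 304 and 313 CPM in DMSO + LPS (log2 difference -0.24, adjusted p = 0.14), and Psmb4 held 461 and 409 CPM against 480 and 515 CPM (-0.19, adjusted p = 0.254). In both the dosed libraries were below the LPS libraries, but replicate 2 was the lower. At the upper end stood Psmd5 with 134 and 143 CPM (0.08), Psmd10 with 119 and 134 CPM (0.08) and Psmc1 with 450 and 455 CPM (0.08), none past the test. Psmd4 with 341 and 340 CPM and Psmd14 with 262 and 269 CPM, the receptor and the deubiquitinase, differed from DMSO + LPS by 0.03 and 0.05. With the short-transcript score added to the fit, 10 members fell at 32 µM: Psma6, Psma4, Psma5, Psmb1, Psmb4, Psmc4, Psmd1, Psmd3, Psmd8 and Psmd13. The values of Psmb4 and Psmd3 were then -0.16 and -0.22, close to those without it, and 1771 of 14172 genes fell in that fit in place of 810.

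At 10 µM, 0 members rose and 1 fell, Psma6, beside 0.967% and 1.7% of all genes, and 2 members (Psma5 and Psma6) had an unadjusted p below 0.05 (12.1% of all genes). The libraries stood above those of DMSO + LPS in 1 member and below in 6, beside 17.9% of all genes each way. Psma5 held 496 and 513 CPM against 544 and 570 CPM in DMSO + LPS (log2 difference -0.14, adjusted p = 0.202), and DESeq2 called it, as did the fit with the short-transcript score, which called 5 members lower in all, beside 855 of 14172 genes in place of 241. Psmc4 held 256 and 228 CPM against 260 and 263 CPM (-0.11). The highest differences were those of Psmb5 (0.56), Psmb7 (0.08) and Psmd11, with 411 and 394 CPM against 387 and 390 CPM (0.05). Without replicate 1 at 10 µM, the library with the highest levels of the epithelial genes, Psmb5 turned to -0.81 and Psmb7 to -0.04. At 3.2 µM edgeR called 0 of the 35 members and 0% of all genes, and 0 members had an unadjusted p below 0.05 (4.23% of all genes). DESeq2 called 0 members at this dose, beside 22 genes higher and 18 lower of 14172. A fit of the 4 libraries alone called Psmb5 higher, where 328 of 13391 genes were higher and 159 lower. In the main fit the member median at 3.2 µM was 0.03. Both libraries stood above DMSO + LPS in 17 members and below in 4, beside 24.4% and 21.5% of all genes.

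Against solvent alone, cells with LPS and 32 µM of the compound had 32 members higher and 0 lower, beside 25.7% and 25.1% of all genes, with a median of 0.64 and 21 members past 1.5-fold (13.9% of all genes). With library totals alone the split was 29 higher and 2 lower (2437 and 5311 of all genes). This comparison shares its DMSO libraries with that of LPS alone. Between 32 and 10 µM edgeR called 0 members, beside 0.804% of all genes higher and 1.95% lower. An unadjusted p below 0.05 was found for 2 members there (12.5% of all genes), and DESeq2 called Psma6.

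The immunoproteasome and its activator gave the contrast. Psmb9, Psmb10 and Psmb8 replace Psmb6, Psmb7 and Psmb5 in the core, and Psme1 and Psme2 form the PA28 cap. LPS raised 3 of these 5 genes (25.2% of all genes): Psmb9 from 14.9 and 12.0 CPM to 21.5 and 24.4 CPM (0.77), Psmb10 from 39.7 and 34.3 CPM to 82.3 and 89.2 CPM (1.21), and Psme2 from 111 and 105 CPM to 293 and 299 CPM (1.46). At 10 µM Psmb10 fell, to 64.3 and 57.7 CPM (-0.49, edgeR adjusted p = 0.0441), where 1.7% of all genes fell. That call was not followed over the alternatives. Psmb9 (-0.51, adjusted p = 0.165) and Psme2 (-0.23, adjusted p = 0.114) did not pass at 10 µM. At 3.2 µM edgeR called 0 of the 5 and 0% of all genes. At 32 µM 4 of the 5 fell (5.72% of all genes). Psmb9 stood at 8.83 and 7.28 CPM (log2 difference -1.51, adjusted p = 5.26e-04), and Psmb10 at 38.1 and 32.9 CPM (-1.27, adjusted p = 1.30e-04). Psme2 stood at 197 and 182 CPM (-0.64) and Psme1 at 67.9 and 58.7 CPM (-0.48, adjusted p = 0.023, 0.0501 to 0.162 without single libraries of DMSO + LPS, of 3.2 µM or replicate 2 at 32 µM). Psmb8 held 27.4 and 8.21 CPM against 40.1 and 43.3 CPM, a log2 difference of -1.23 that did not pass (adjusted p = 0.335), and it passed with the short-transcript score in the fit. Its replicates decide the size: leaving out replicate 1 of the 32 µM libraries gave -2.34, and leaving out replicate 2 gave -0.61.

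Each immunosubunit was also counted against its constitutive partner within the same library. Psmb10 counts were 25.8% and 25.5% of Psmb7 counts in DMSO + LPS. With the compound they were 21.1% and 22.3% (3.2 µM), 16.8% and 17.7% (10 µM), then 11.3% and 11.4% (32 µM). The share fell with each dose and at 32 µM was below the 22.8% and 20.9% of solvent alone. Psmb9 counts were 6.24% and 6.83% of Psmb6 counts in DMSO + LPS, and 5.68% and 6.06%, 4.31% and 4.98%, and 2.43% and 2.64% from the lowest dose to the highest, beside 8.69% and 8.52% in DMSO. For Psmb8 over Psmb5, both erratic between replicates, the share was 79% and 77.2% in DMSO + LPS, 71.1% and 72.9%, 48.3% and 66%, and 34.5% and 28.8% over the same doses, and 57.7% and 43.5% in DMSO. The libraries of each dose stood below those of DMSO + LPS in all 3 pairs. At 32 µM the log2 difference of the share was -1.37, -1.17 and -1.31 for the pairs led by Psmb9, Psmb10 and Psmb8. An exact two-sided permutation test of 2 libraries against 2 gave p = 0.333 for each of these, its smallest value, in a family of 18 such comparisons, so none could pass. The shares are of counts, not of transcripts per length, and say nothing of protein.

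**Figure D3:**
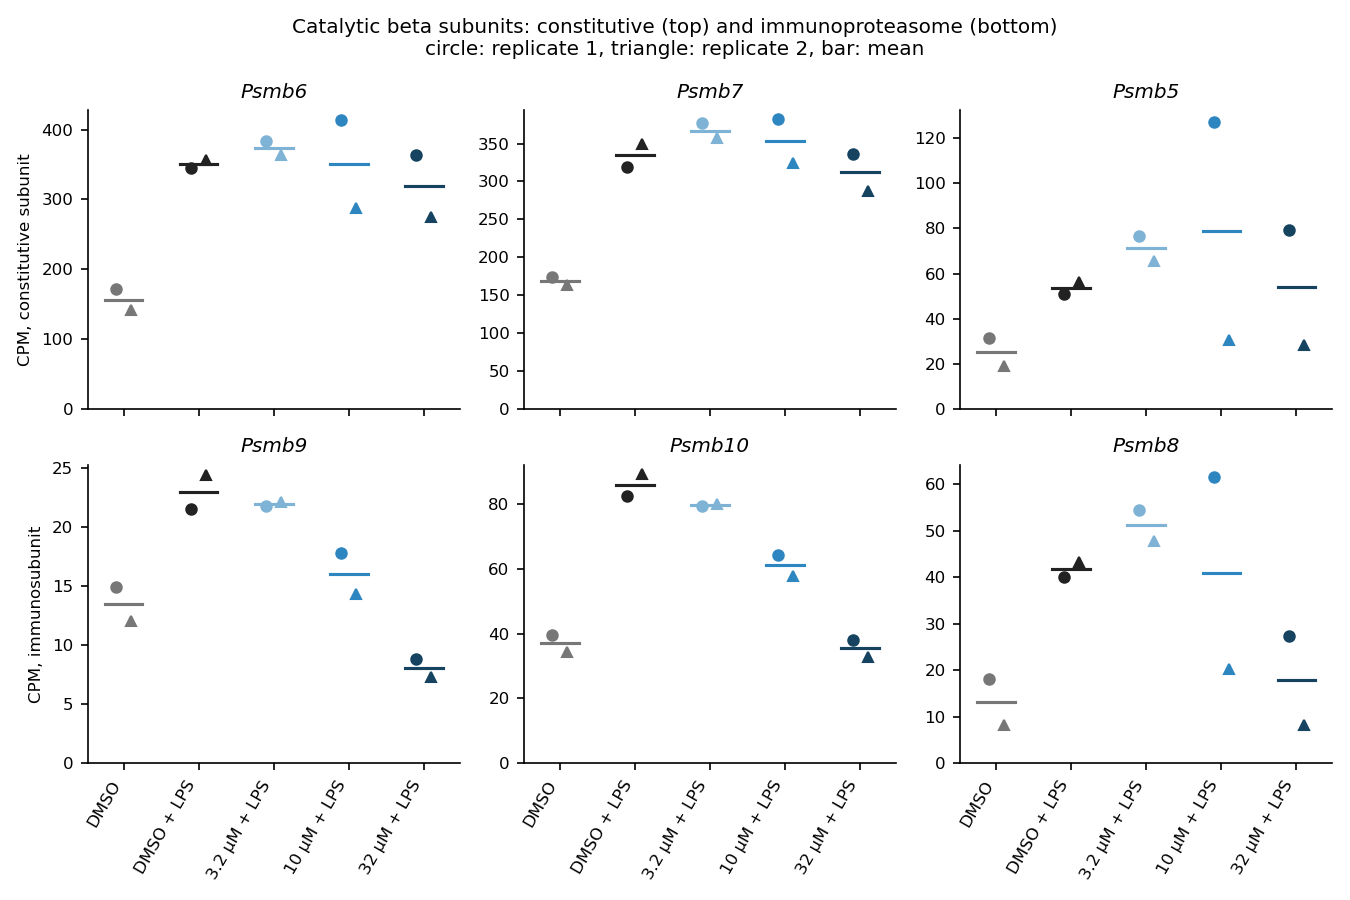
CPM (vertical axes, from 0) of the constitutive catalytic subunits (top) and of the immunosubunit that replaces each (bottom), with circles for replicate 1, triangles for replicate 2 and bars for the mean of the 2 libraries. Psmb6 and Psmb7 stay above both DMSO libraries at each dose. Psmb9 overlaps DMSO + LPS at 3.2 µM (21.8 and 22.1 CPM). Psmb9 and Psmb10 lie below DMSO + LPS at 10 µM and reach 8.83 and 7.28 CPM and 38.1 and 32.9 CPM at 32 µM.

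Over the other doses the catalytic subunits read as follows. Psmb6 held 384 and 364 CPM at 3.2 µM, 414 and 287 CPM at 10 µM and 364 and 275 CPM at 32 µM, and Psmb7 held 377 and 357, 383 and 325, and 336 and 288 CPM. Psmb5 held 76.6 and 65.7 CPM, 127 and 30.6 CPM, and 79.3 and 28.4 CPM. None passed the test against DMSO + LPS at any dose, and in each dosed group replicate 1 was the higher for all 3 genes.

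Genes that serve the proteasome without being matched by the rule moved in both directions with LPS, and the counts of these short lists stand beside 25.2% of all genes higher and 25.8% lower. Among receptors and deubiquitinases of the particle, 4 of 9 rose and 1 fell: Adrm1, the receptor Rpn13, from 127 and 121 CPM to 224 and 237 CPM (0.90), the shuttle Rad23b (0.79), Ubqln1 (0.35) and the deubiquitinase Usp14 (0.21) were higher, and the deubiquitinase Uchl5 lower (-0.31). Of the 6 assembly factors outside the rule, Pomp, the maturation factor of the core, rose by 0.49, while Psmg1 and Psmg2, which pair to build the alpha ring, were lower (-0.40 and -0.41). The activator Psme4 (0.39) and the inhibitor Psmf1 (0.19) were higher, and Psme3 was not called (-0.03). None of the 4 ubiquitin genes passed the test, with a median of 0.38. At 32 µM edgeR called none of the genes of these lists against DMSO + LPS, and 3 of them (Akirin2, Ecpas and Ubb) had an unadjusted p below 0.05, beside 4.06% of all genes higher, 5.72% lower and 22.2% at the unadjusted threshold.

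Of 6 regulators, Nfe2l1 rose with LPS from 275 and 279 CPM to 417 and 405 CPM (0.57), Vcp, the unfoldase that extracts its product, rose by 0.72, and Keap1 by 0.36. Ddi2, the protease that activates the Nfe2l1 product, fell from 81.1 and 86.7 CPM to 43.3 and 41.1 CPM (-0.99), and Nfe2l2 fell by 0.15. Ngly1 was not called (-0.24). At 32 µM Nfe2l2 rose from 132 and 128 CPM to 169 and 179 CPM (0.42, adjusted p = 0.00152), while Nfe2l1 (-0.16) and Keap1 (-0.31) did not pass the test (adjusted p = 0.0551 and 0.0618). The known Nrf2 targets Nqo1 and Gclm rose there by 2.63 and 0.88, and the inflammatory genes Il1b and Nos2 were lower (-1.69 and -2.19), beside the median of -0.05 in the proteasome members.

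In some conditions the replicates differed more in the short members at the median, though not member by member. Replicate 1 minus replicate 2, in log2 CPM, ran from -0.14 to 0.04 over the members in DMSO + LPS and from -0.06 to 0.22 at 3.2 µM. In DMSO it ran from -0.22 to 0.72, at 10 µM from -0.16 to 2.06 and at 32 µM from -0.18 to 1.48, with Psmb5 at the top and Psmd10 at the bottom in all 3. The 5 members with transcripts under 1000 nt (Psma7, Psmb2, Psmb3, Psmb5 and Psmb6) had a median difference of 0.27, 0.31 and 0.26 in these conditions, against 0.04, 0.06 and 0.03 in the other 30. Some longer members passed short ones. At 10 µM Psma2 (2911 nt) stood at 0.35 and Psma3 (2846 nt) at 0.28, above Psma7 at 0.24 and Psmb3 at 0.22. The short-transcript score, which holds no proteasome gene, was higher in replicate 1 in DMSO and at 10 and 32 µM, and by less at 3.2 µM.

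**Figure D4:**
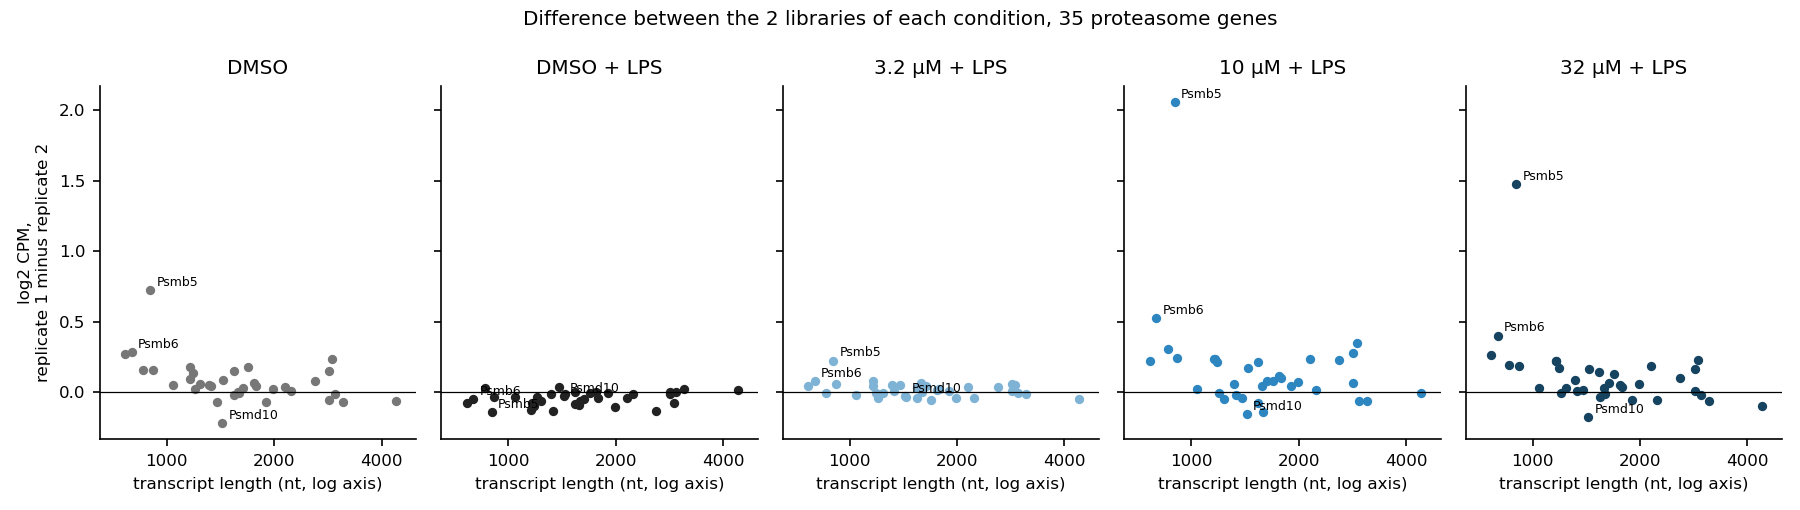
Each point is a member, with its transcript length (nucleotides, log axis) against the log2 CPM of replicate 1 minus replicate 2 in the condition named above the panel. Points at DMSO + LPS and 3.2 µM lie near 0, while in DMSO and at 10 and 32 µM the short transcripts and some longer ones lie above it and Psmb5 reaches 0.72, 2.06 and 1.48.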

How the data were processed

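The authors deposited a table of raw read counts for mouse Ensembl genes that was not normalized, with a column for each library. Their libraries were poly(A)-selected and directional, sequenced with 2 × 150 cycles on 1 lane. The submitters' processing notes name Trimmomatic, FastQC, STAR, DESeq2 and the build mm10; the counting tool, strand setting and annotation are not given in the sources used here. Symbols, positions and transcript lengths came from GENCODE M21 through the Ensembl identifiers (42462 of 43432 matched).

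Of 43432 genes, 14172 passed edgeR's filterByExpr (minimum count 10). Counts were scaled by TMM and fitted with 1 mean per condition over all 10 libraries (5 residual degrees of freedom; R 4.3.3, edgeR 4.0.16), and 6 contrasts were tested by the quasi-likelihood F test with Benjamini-Hochberg adjustment. A gene is called at an adjusted p below 0.05; counts past 1.5-fold are given beside. Errors of fitted differences are SE, and intervals are 95%. The smallest exact permutation p with 2 libraries against 2 is 0.333. Steps were tested on simulated data.

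The members and lists were chosen with earlier results of these data known. Values per library are given for Psmb5, Psmb6, Psmb7, Psmd4 and Psmd14, for the 3 highest and 3 lowest members at LPS, 32 µM and 10 µM, and for members called past 1.5-fold; genes of the related lists are named where called for LPS against DMSO or for a dose against DMSO + LPS. Alternatives were DESeq2 1.42.0 size factors or Wald test, library totals alone, no filter, a filter at a mean of 5 CPM, the replicate number as a block, the short-transcript score, 4 libraries alone, and leaving out each library.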

Additional observations from a re-analysis of the deposited data

Results flagged for a closer look

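The effect of the compound differed between doses in 3 genes beside the constitutive members. In the same fit the 32 µM libraries lay below the 10 µM libraries in Psmb9 by a log2 difference of -0.996 (edgeR adjusted p = 0.0133), in Psmb10 by -0.78 (adjusted p = 0.00537) and in Psme2 by -0.41 (adjusted p = 0.0101). edgeR called 0 constitutive members in this comparison, where 2 had an unadjusted p below 0.05 and DESeq2 called Psma6 (-0.16 and adjusted p = 0.127 in edgeR). Of all genes, 0.804% were called higher and 1.95% lower, and 12.5% had an unadjusted p below 0.05.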

How the results depend on the processing

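Over 46 pairs of a named gene and a comparison and 19 alternatives, 846 values kept their direction and side of the threshold, 10 gained a call, 14 lost it and 4 changed sign. The sign changes were Psmd10 at 32 µM, -0.0111 without replicate 2 at 32 µM (up to 0.1659 without other libraries) and -0.0108 without that library and DMSO replicate 2 (a pair left out together after the data were seen), and, without replicate 1 at 10 µM, Psmb5 at -0.806 and Psmb7 at -0.0422 (up to 1.2288 and 0.1713 without others); none was called. The count of members called against DMSO + LPS at 32 µM was 1 and became 10 with the short-transcript score, 2 with DESeq2's Wald test and 0 at a 1.5-fold cutoff. Over all genes the score fit called 1675 higher and 1771 lower at 32 µM, and DESeq2 693 and 937. At 10 µM the count of members was 1 and became 5, 2 and 0 under these, and 0 with the 4 libraries alone. Over all genes at 10 µM the score fit called 724 higher and 855 lower, DESeq2 215 and 434, and the 4 libraries alone 11 and 30. At 3.2 µM 4 libraries alone gave 1 in place of 0. Between 32 and 10 µM the score gave 3 and DESeq2 1 in place of 0 (over all genes 833 and 400 lower in place of 277), and at 32 µM against DMSO the 1.5-fold cutoff left 21 of 32. The cause was not tested. Leaving out each library gave 32 for LPS, 1 at 32 µM, 0 to 1 at 10 µM, 0 at 3.2 µM and between 32 and 10 µM, and 29 to 32 at 32 µM against DMSO. The lone library left in a condition is assumed to vary like the others.

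With the replicate number as a block the counts of members called were 32, 1, 1, 0, 0 and 32 in the 6 comparisons, as without it. Over all genes the block fit called 3832 higher and 3880 lower for LPS, 693 and 903 at 32 µM, and 185 and 289 at 10 µM. Replicate differences over 9562 genes correlated between DMSO and the 3 doses in every pair (0.303 to 0.83), but DMSO + LPS correlated negatively with each of these 4 conditions (-0.417 to -0.171). The numbers were therefore not taken to pair the libraries of all conditions, although 4 of the 5 share a difference between replicates.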
